A study of Mus musculus with 4 samples.

Results

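Peritoneal macrophages of mice given microcurrent stimulation (MCS) were compared with those of control mice 12 h after the session, at ZT14, where ZT counts hours from lights on. Of the 15298 genes listed, 12368 had a mean of both ZT14 libraries above 1 CPM (the reads of a gene scaled to a common library size) and entered the comparison. Of these, 11212 were single-copy genes, which means that their names are not those of clones or pseudogenes and that no other listed gene had the same values or a near-identical transcript. MCS was a bidirectional pulsed current of 300 µA at 400 Hz, passed for 15 min between pads on the abdomen and back of mice under isoflurane at ZT2, and control mice went through the procedure, isoflurane included, without current. All libraries came from BALB/c females aged 6 weeks, from cells sorted as CD11b+ F4/80+ Ly6G-. Each of the 4 conditions, control and MCS at ZT2 (right after the session) and at ZT14, is 1 library. The sources used here do not say how many mice went into a library, and the ZT14 comparison by itself has no replicate check and no test. A test over all 4 libraries looks only for an effect common to both times.

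Resident macrophages of the peritoneal cavity are mostly large cells that express *Gata6*, hold this identity under retinoic acid, and clear dead cells and bacteria from the cavity. They share it with smaller macrophages, B cells (many of the B1 type), mast cells and, after disturbance, granulocytes. Their lipid handling is set by nuclear receptors: LXR, which responds to sterols and drives efflux, and PPAR, which responds to fatty acids and drives their storage and burning. A cell-autonomous clock runs in them as well, in which BMAL1 and CLOCK drive *Per*, *Cry*, *Nr1d1* and *Dbp*, and the protein of *Nr1d1* represses *Arntl* and *Nfil3*.

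The libraries held 8365590 to 9953243 reads, and 1 read equaled 0.102 to 0.116 CPM. Values are CPM with the ratio of MCS to control as log2 after adding 0.1 CPM to each, and intervals are exact (Clopper-Pearson) 95% intervals on the reads, which cover counting error only. Where a pair of values is given, control comes first and MCS second. Genes of the labelled identity were abundant, though the cells were sorted on the proteins of *Itgam* and *Adgre1*. Genes of other cell types were present too and are given below. *Lyz2*, the lysozyme of macrophages, had 17605 CPM in control against 18847 CPM in MCS, and is not counted as single-copy. *Itgam*, which encodes CD11b, had 4214 and 4831 CPM, and *Adgre1*, which encodes F4/80, had 1361 and 1900 CPM.

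At ZT14, 227 genes had a log2 ratio above 1, 1.84% of those compared, and 194 had one below -1, 1.57%. Among single-copy genes 183 were higher, 1.63%, and 149 were lower, 1.33%, and among the 1156 other genes 7.70% passed in either direction. Passing was most frequent at low levels. Of single-copy genes with a mean of 1 to 3 CPM, 16.6% passed, against 0.901% at 10 to 30 CPM, 0.336% at 30 to 100 CPM and 0.434% above 100 CPM. The 8 single-copy genes above 100 CPM that passed were divided evenly, 4 higher and 4 lower. The median log2 ratio of all genes was 0.00 and 50.4% of the ratios were above 0. The counting interval lay above 0 for 18.7% of all genes and below 0 for 18.9%, and the counts of members below are to be read beside these shares.

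**Figure D1:**
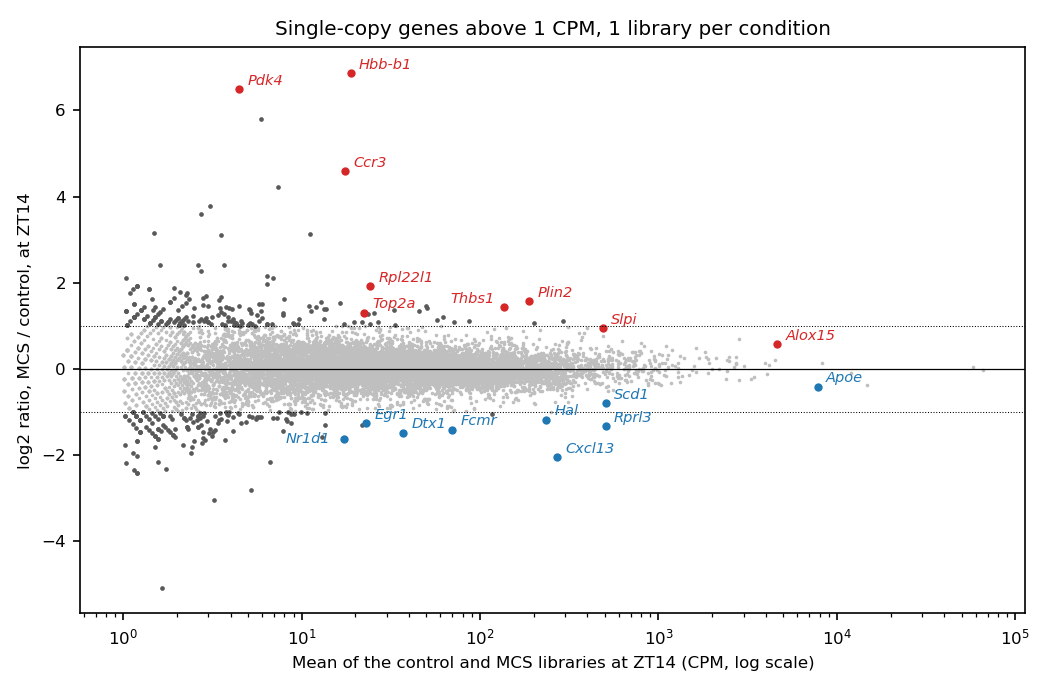
Each point is a single-copy gene, with the mean of the control and MCS libraries at ZT14 in CPM on a log axis and the log2 ratio of MCS to control on the vertical axis. Dark points lie beyond 1 (dotted lines), named genes higher with MCS are red and those lower are blue, and 16.6% of genes lie past 1 at 1 to 3 CPM, 0.336% at 30 to 100 CPM and 0.434% above 100 CPM.

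Genes of fatty acid storage and burning were among the highest. *Plin2*, which coats lipid droplets, had 94.6 and 281 CPM (1.57, interval 1.46 to 1.68), the highest ratio of all single-copy genes above 100 CPM. *Pdk4*, the kinase that closes pyruvate dehydrogenase and so spares glucose, had no read in control and 87 reads, 8.90 CPM, in MCS. Against the 3 reads that a count of 0 allows, this is at least 27.0-fold higher, and the ZT2 libraries had 11.3 and 13.9 CPM. The control library at ZT14 thus stood apart from the other 3 for this gene, and whether its 0 is a failed estimate of the read counter was not tested. *Cpt1a*, which gates fatty acids into mitochondria, had 88.9 and 143 CPM (0.68, interval 0.56 to 0.81). *Fabp5* and *Angptl4*, further PPAR targets, had ratios of 1.63 and 1.92, at 4.29 and 1.94 CPM in MCS. Enzymes and carriers of the same route, chosen after these values were seen, were uneven. The acylcarnitine carrier *Slc25a20* had 8.13 and 15.1 CPM (0.89) and the thiolase *Acaa2* had 21.6 and 39.98 CPM (0.88), but the dehydrogenase *Acadm* had 30.4 and 31.9 CPM (0.07).

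Most LXR targets in the same list were lower. *Abca1* and *Abcg1*, the cholesterol exporters, had 582 and 436 CPM (-0.42, interval -0.48 to -0.36) and 278 and 199 CPM (-0.48, interval -0.56 to -0.39). *Apoe*, a protein of the particles that take up this cholesterol, had 8952 and 6722 CPM (-0.41, interval -0.43 to -0.40). *Mylip*, which marks the LDL receptor for degradation, had a ratio of -0.56, *Apoc1* of -0.55 and *Pltp* of -0.32. *Lpcat3*, which remodels phospholipids, was the exception at 0.22 (interval 0.02 to 0.43). Over the list of LXR and PPAR targets, 21 of 22 genes were above 1 CPM, with 4 past 1 and none past -1. The intervals of 8 lay above 0 and of 7 below 0, so that the median of 0.01 covers members on both sides. The fatty acid desaturases *Scd1* and *Scd2* were lower too, at 640 and 370 CPM (-0.79) and at 139 and 87.1 CPM (-0.68). The 13 genes of fatty acid synthesis, to which both belong, had a median of -0.04. *Fasn* had -0.11, *Acaca* 0.24 and *Acly*, which makes cytosolic acetyl-CoA, 0.34 (888 and 1125 CPM). The elongase gene *Elovl6* was past 1 at under 3 CPM. Sterol synthesis had a median of 0.11 over 24 genes, none past 1 either way. At ZT2 the pair of libraries differed less for these genes: *Plin2* had a ratio of 0.34, *Cpt1a* 0.19, *Apoe* 0.15, *Abca1* -0.26 and *Scd1* -0.04.

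Clock genes lay on both sides of 0. Of 25 genes, 22 were above 1 CPM, 2 were past -1 and none past 1, with intervals of 7 below 0 and of 6 above 0 and a median of -0.23. *Nr1d1* (26.03 and 8.38 CPM) and *Dbp* (19.6 and 6.44 CPM) had the lowest ratios of the list, -1.62 and -1.59. *Nr1d2*, *Per2*, *Per3*, *Bhlhe41* and *Tef* lay between -0.98 and -0.54, each with its interval below 0. On the other side stood *Nfil3*, the repressor that opposes *Dbp* and *Tef* at shared sites, at 0.91, and *Wee1*, a kinase that holds back mitosis, at 10.4 and 17.9 CPM (0.77, interval 0.41 to 1.15). The output genes *Ciart* and *Usp2* had -0.84 and -0.40 at under 4 CPM, with intervals that included 0. *Per1* was at 0.17 and *Clock* at 0.10. In the control libraries these genes stood far apart by time. The level of *Dbp* was 2.43 CPM at ZT2 against 19.6 CPM at ZT14, that of *Tef* 15.01 against 121 CPM, and that of *Wee1* the reverse, 35.0 against 10.4 CPM. MCS at ZT14 lay between these levels for all 3 of them, at 6.44, 82.7 and 17.9 CPM.

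The 9 clock genes past 0.5 either way with at least 10 CPM were searched for the 3 response elements through which the clock loops act. Promoter windows from RefSeq (GRCm38.p6, 250 bases before to 50 after a start) were at hand for 7 of them. The E-box CACGTG, bound by BMAL1 and CLOCK, was found in *Bhlhe41* and *Tef*, and occurs in 7.15% of all 32817 windows. The D-box, searched as TTATGTAA or TTACGTAA and bound by the proteins of *Dbp*, *Tef* and *Nfil3*, was found in *Per3*, with 2 copies, and in 1.05% of windows. The RORE TAGGTCA, bound by the ROR and REV-ERB proteins, was found in *Nfil3*, on the opposite strand, and in 2.61% of windows. Both strands were searched and no matches overlapped. The windows of *Nr1d1*, *Dbp* and *Nr1d2* held none of these letters, which says nothing of sites elsewhere. Of the 5 windows with a match, 4 are shown, written 5′ to 3′ along the gene, because they set the genes that were lower beside the one that was higher. Capitals mark the match.
*Per3* (-0.71), chr4:151044616-151044915, minus strand, D-box: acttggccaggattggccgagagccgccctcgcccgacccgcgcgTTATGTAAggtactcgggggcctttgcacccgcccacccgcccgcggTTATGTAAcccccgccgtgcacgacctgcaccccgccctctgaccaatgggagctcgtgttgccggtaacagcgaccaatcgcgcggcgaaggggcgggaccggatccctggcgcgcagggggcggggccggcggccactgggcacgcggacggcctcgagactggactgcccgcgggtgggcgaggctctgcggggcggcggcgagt
*Bhlhe41* (-0.69), chr6:145865371-145865670, minus strand, E-box: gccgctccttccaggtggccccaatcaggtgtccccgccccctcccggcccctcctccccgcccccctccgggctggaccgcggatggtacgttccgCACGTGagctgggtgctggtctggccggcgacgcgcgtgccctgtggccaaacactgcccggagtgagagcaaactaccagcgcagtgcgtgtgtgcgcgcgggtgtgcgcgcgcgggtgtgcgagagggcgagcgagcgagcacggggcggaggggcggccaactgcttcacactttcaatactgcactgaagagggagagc
*Tef* (-0.54), chr15:81811164-81811463, plus strand, 1 of 2 windows, each with an E-box: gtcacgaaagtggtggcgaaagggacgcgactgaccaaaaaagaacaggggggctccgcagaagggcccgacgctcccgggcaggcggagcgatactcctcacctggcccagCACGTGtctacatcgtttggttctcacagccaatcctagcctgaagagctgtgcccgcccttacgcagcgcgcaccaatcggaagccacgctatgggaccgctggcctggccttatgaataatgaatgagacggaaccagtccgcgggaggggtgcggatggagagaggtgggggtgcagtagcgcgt
*Nfil3* (0.91), chr13:52980990-52981289, minus strand, RORE: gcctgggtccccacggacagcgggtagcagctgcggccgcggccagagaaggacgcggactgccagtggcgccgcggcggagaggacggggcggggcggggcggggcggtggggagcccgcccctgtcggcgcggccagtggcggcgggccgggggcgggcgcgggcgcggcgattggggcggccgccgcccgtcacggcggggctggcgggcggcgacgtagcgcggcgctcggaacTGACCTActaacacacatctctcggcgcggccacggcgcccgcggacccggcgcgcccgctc

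Immediate early genes, which growth factor, calcium and inflammatory signals induce quickly, were lower at ZT14 for the EGR and NR4A families. *Egr3* had 11.0 and 2.35 CPM (-2.18, interval -2.95 to -1.56) and *Egr1* had 32.4 and 13.4 CPM (-1.27, interval -1.58 to -0.97). *Egr2* had a ratio of -1.14, and of the NR4A nuclear receptors *Nr4a2* had -1.24 and *Nr4a1* -0.83, at 22.96 and 12.9 CPM. The AP-1 genes named here had smaller ratios, on both sides of 0. *Fos* had 21.2 and 20.0 CPM (-0.08), *Junb* -0.13, *Jun* -0.31 and *Fosl2* 0.12, and *Myc* had -0.07. *Dusp1*, which ends MAP kinase signalling and also answers to glucocorticoids, was on the other side, at 123 and 224 CPM (0.87, interval 0.77 to 0.98), as was *Atf3* (0.61). Of 29 genes above 1 CPM, 4 were past -1 and none past 1, and the intervals of 13 lay below 0 and of 3 above 0. At ZT2, right after the session, *Egr1* had 11.2 and 12.2 CPM, and the list had a median of 0.11.

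Glucocorticoid-responsive genes were mixed. *Zbtb16*, a zinc finger gene strongly induced by glucocorticoids, had 18.5 and 47.5 CPM (1.36, interval 1.11 to 1.63). At ZT2 *Zbtb16* had 88.3 and 205 CPM (1.21). Together with *Adgrg5*, an adhesion receptor gene (1.34 at ZT14 and 1.20 at ZT2), it was past 1 in the same direction at both times at 10 CPM or more. *Ddit4*, a brake on mTORC1, had 18.02 and 35.4 CPM (0.97). *Anxa1*, which encodes the anti-inflammatory annexin A1, had 152 and 284 CPM (0.90). *Tsc22d3*, which encodes GILZ, had a ratio of 0.49 and *Sgk1* of 0.59. Other classical members were lower: *Fkbp5*, a chaperone of the receptor, had 46.7 and 35.4 CPM (-0.40, interval -0.61 to -0.19), and the metallothionein gene *Mt1* had 75.0 and 42.2 CPM (-0.83). Over 21 of 23 genes above 1 CPM, 2 were past 1 (*Zbtb16* and *Pdk4*) and 1 past -1 (*Mt2*, at 2.42 and 0.614 CPM), with a median of 0.20. The receptor gene itself, *Nr3c1*, was at -0.09.

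Cell cycle genes were higher with MCS almost throughout, at low levels. Of the 40 mitosis genes above 1 CPM (43 listed), 38 had ratios above 0, 11 were past 1 and none past -1, with a median of 0.59. *Top2a*, which untangles chromosomes, had 12.9 and 31.9 CPM (1.305, interval 1.001 to 1.63), and *Mki67*, the proliferation marker Ki-67, had 48.0 and 77.6 CPM (0.69, interval 0.52 to 0.87). The spindle gene *Tpx2* had a ratio of 1.36 and the checkpoint kinase gene *Bub1b* one of 1.49, each under 8 CPM. The intervals of 18 members lay above 0 and of none below. The 5 members with a mean of at least 10 CPM had a median of 0.39. Summed over the list, the level was 270 and 399 CPM (0.56, interval 0.49 to 0.63), and at ZT2 it was 397 and 400 CPM. The control library at ZT14 was thus the low one of the 4.

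DNA replication genes showed the same order with smaller ratios. Of 42 genes above 1 CPM (44 listed), 35 had ratios above 0 and 6 were past 1, with a median of 0.39, intervals of 18 above 0 and of none below. Of the MCM helicase genes, *Mcm6* had 11.3 and 23.3 CPM (1.04, interval 0.70 to 1.39), *Mcm5* had 0.95, *Mcm3* 0.73, *Mcm2* 0.55, *Mcm4* 0.38 and *Mcm7* 0.30. *Chaf1a*, which loads histones on new DNA, had 2.97 and 8.59 CPM (1.503). *Pcna*, the sliding clamp, had 39.4 and 50.6 CPM (0.36). Some members stood even, among them *Tyms*, the thymidylate synthase gene, at 249 and 246 CPM, and the G1 cyclin genes *Ccne1* (-0.19) and *Ccne2* (-0.10). At ZT2 the medians were 0.01 for replication and 0.00 for mitosis.

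**Figure D2:**
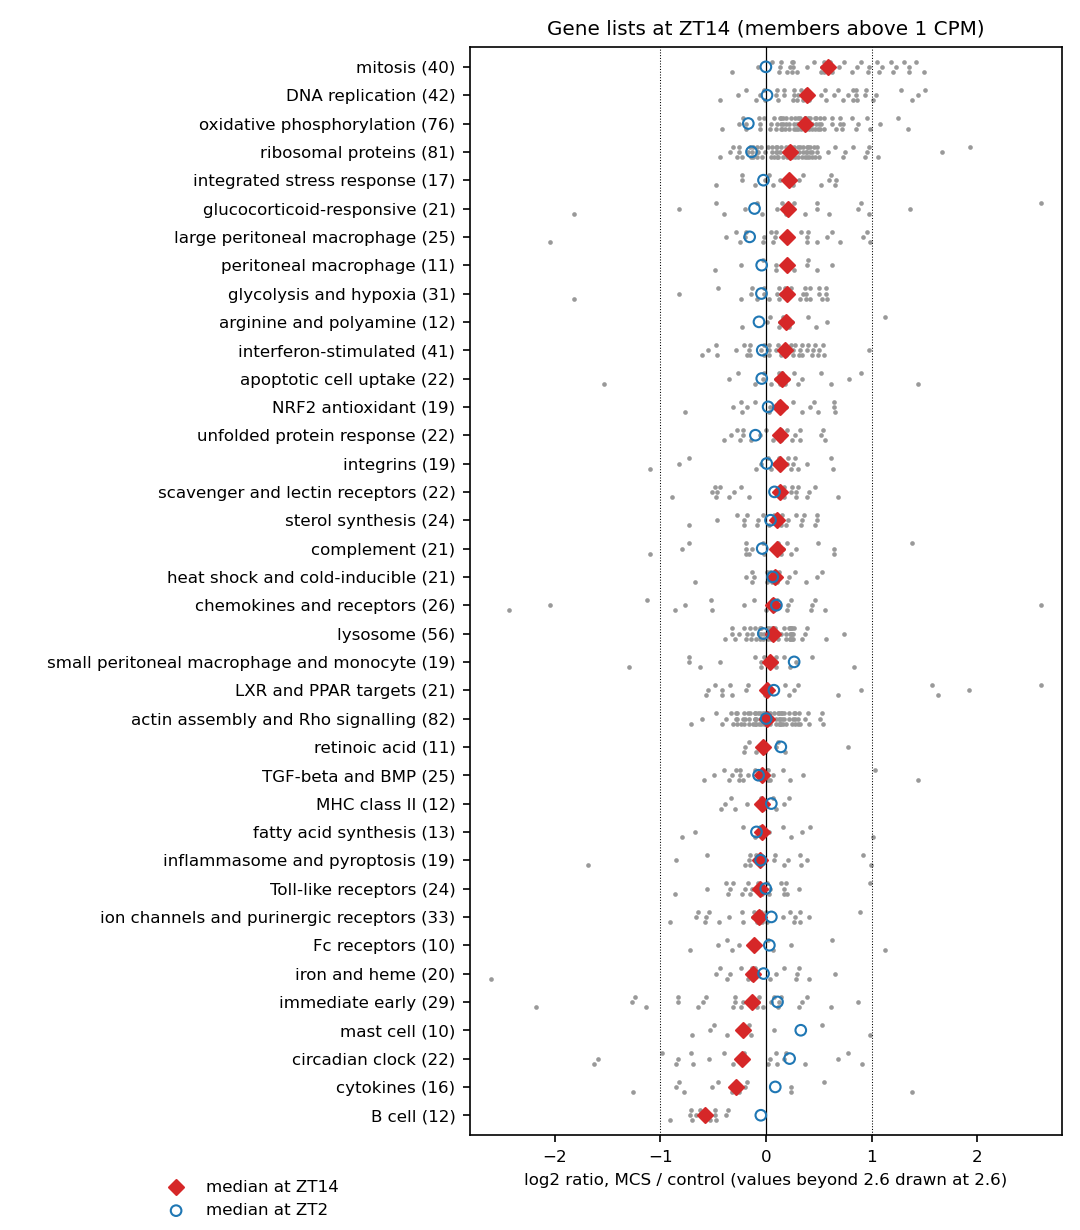
Each row is a gene list with the number of members above 1 CPM in parentheses, grey points are the log2 ratios of MCS to control of its members at ZT14, red diamonds their median and blue circles the median of the same members at ZT2. Mitosis genes stand at the top of the lists drawn, with a median of 0.59 at ZT14 and 0.00 at ZT2, and B cell genes at the bottom with -0.58 and -0.05. Of the cell type lists, only those of B cells, mast cells and peritoneal macrophages are drawn. Some left out had higher medians at ZT14: red blood cell genes 6.41, eosinophil genes 4.23 and fibroblast genes 1.33.

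B cell genes were present in the sorted cells and were lower with MCS without exception. All 12 members above 1 CPM (13 listed) had intervals below 0, with a median of -0.58 and a range from -0.91 to -0.36. The summed level was 2189 and 1533 CPM (-0.51, interval -0.54 to -0.48), against 1854 and 1768 CPM at ZT2. *Cd79a*, a chain of the B cell receptor complex, had 369 and 233 CPM, and *Ms4a1*, which encodes CD20, 318 and 248 CPM. Of the factors that set the lineage, *Ebf1* had the lowest ratio of the list, with 121 and 64.1 CPM (-0.91, interval -1.06 to -0.77), and *Pax5* had 61.3 and 37.3 CPM (-0.71). In bulk libraries fewer B cells and less RNA per B cell cannot be told apart.

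Some of the lowest ratios were of genes known from B cells, 2 of the 12 lowest among single-copy genes at 10 CPM or more. *Fcmr*, the receptor for IgM, had 102 and 38.1 CPM (-1.41, interval -1.59 to -1.24), and *Dtx1*, a Notch pathway gene of marginal zone B cells, had 54.5 and 19.4 CPM (-1.48, interval -1.74 to -1.24). Among the 10 lowest at 100 CPM or more, *Pou2f2*, which encodes OCT2, had 167 and 91.9 CPM (-0.86) and *Ikzf3*, which encodes Aiolos, 261 and 148 CPM (-0.82). After these values were seen, 17 regulators and signalling genes of B cells were gathered. All 17 were lower with intervals below 0, with a median of -0.77 at ZT14 and 0.12 at ZT2. The group includes *Fcmr*, *Dtx1*, *Pou2f2* and *Ikzf3*, just named for their low ratios, and *Ebf1* and *Pax5* of the B cell list. It is thus no independent count. Among the 17, *Bcl11a* had 112 and 56.1 CPM (-0.99), *Foxp1* 392 and 230 CPM (-0.77), *Tlr9* -0.86 and *Cxcr5*, the receptor for CXCL13, -0.51. *Foxp1* is also expressed in macrophages.

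*Cxcl13*, the chemokine by which peritoneal macrophages draw B1 cells into the cavity, had the lowest ratio of all single-copy genes at 10 CPM or more. Its level was 437 and 106 CPM (-2.05, interval -2.15 to -1.95), and 193 and 222 CPM at ZT2 (0.20). Both the control and the MCS library at ZT14 thus lay outside the range of the ZT2 pair, on opposite sides. It was the single large ratio among the genes of large peritoneal macrophages. Of 25 genes, 17 had ratios above 0, 1 was past -1 and none past 1, with a median of 0.20, intervals of 17 above 0 and of 6 below 0.

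Higher members of that list were led by *Lbp*, which passes endotoxin to CD14, at 11.3 and 22.5 CPM (0.99), *Slpi*, a secreted inhibitor of neutrophil elastase, at 333 and 645 CPM (0.95, interval 0.89 to 1.02), and *Garnl3* at 83.0 and 157 CPM (0.92). *Alox15*, the lipoxygenase of resident peritoneal macrophages, had 3712 and 5532 CPM (0.58), *Cd9* 0.70, *Serpinb2* 0.62, *Gata6* 0.40 and *Itga6* 0.39. The 3 lowest members after *Cxcl13* encode secreted proteins. The acute phase gene *Saa3* had 1161 and 895 CPM (-0.37), *Tgfb2* 772 and 635 CPM (-0.28) and the lubricin gene *Prg4* -0.25. *Fn1*, the fibronectin gene, was at 0.05 (56779 and 58797 CPM). At ZT2 the list had a median of -0.15, and *Slpi* and *Serpinb2* had -0.52 and -0.84. In the list of small macrophages and monocytes, the median was 0.03, with *Lyve1*, the hyaluronan receptor of tissue macrophages, at 30.9 and 12.5 CPM (-1.30) and *F13a1* at -0.73.

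Receptors of phagocytosis were divided. Of 10 Fc receptor genes and partners, *Fcgr4*, the activating receptor for IgG2, had 36.1 and 78.9 CPM (1.12, interval 0.94 to 1.32), the 1 member past 1. The high-affinity receptor gene *Fcgr1* had 10.5 and 16.4 CPM (0.63) and *Fcgr3* 306 and 361 CPM (0.24). *Fcgr2b*, the inhibitory receptor, which B cells also carry, had 310 and 239 CPM (-0.37), and *Syk*, the kinase that activating receptors share with the B cell receptor, 972 and 775 CPM (-0.33). The median of the 10 was -0.12.

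Among genes for uptake of apoptotic cells, *Thbs1*, a bridge to CD36 and the integrin αvβ3, had 73.8 and 200 CPM (1.44, interval 1.31 to 1.57). Its level in the ZT2 libraries was far above either, at 1376 and 938 CPM. Of the genes for the receptors just named, *Itgb3*, which encodes integrin β3, had a ratio of 0.62 and *Cd36* 0.30. *Itgav* had 0.13 with an interval from -0.02 to 0.28. At ZT2 *Thbs1* and *Itgb3* lay on opposite sides, at -0.55 and 0.29. Another bridge gene, *Mfge8*, had a ratio of 0.52 at ZT14. The inhibitory receptor gene *Cd300a* had 61.4 and 106 CPM (0.78), and *Mertk*, the receptor that clears dying cells, 97.7 and 117 CPM (0.27). *Stab1*, which binds phosphatidylserine, was lower, at 528 and 416 CPM (-0.35), and *Timd4* stood at -0.03. Of 22 members above 1 CPM, 1 was past 1 and 1 past -1 (*Gas6*, under 3 CPM in both), with intervals of 12 above 0 and of 4 below 0 and a median of 0.15.

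Genes of actin assembly, the process that drives engulfment, were even in RNA level, and the process itself was not measured here. None of 82 genes passed 1 in either direction, the median was 0.01, and the intervals of 29 lay above 0 and of 23 below 0. The highest were *Tmsb4x*, which buffers monomeric actin, at 903 and 1311 CPM (0.54), and *Arpc1b* of the ARP2/3 complex at 425 and 613 CPM (0.53). The lowest was *Actn1*, an actin crosslinker, at 23.2 and 14.1 CPM (-0.71). *Fam101b*, which encodes the filamin partner refilin B and was not in the list, had 2.20 and 19.9 CPM (3.13, interval 2.52 to 3.92), and at ZT2 4.04 and 8.82 CPM (1.11).

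Complement genes spread to both sides. *C1rl*, a protease related to C1r, had 7.58 and 19.8 CPM (1.38), and *Cd55*, which dissolves C3 convertases, 112 and 64.9 CPM (-0.79, interval -0.94 to -0.65). *C1qa*, *C1qb* and *C1qc* lay between -0.16 and -0.03, and *C3* was at 0.16. The list of 21 genes had a median of 0.10 with 1 past 1 and 1 past -1, the latter *C5ar2* at under 3 CPM.

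Inflammatory cytokines were low and mostly lower with MCS. *Tnf* had 6.48 and 2.66 CPM (-1.25, interval -2.01 to -0.60), *Il1a* 16.1 and 9.10 CPM (-0.82), *Osm* 11.6 and 6.75 CPM (-0.78) and *Il1b* 3.95 and 2.15 CPM (-0.85). *Spp1*, which encodes osteopontin, went the other way, with 7.36 and 19.3 CPM (1.38, interval 0.98 to 1.82). Of 16 cytokine genes above 1 CPM, 12 had ratios below 0, 1 was past -1 and 1 past 1, with a median of -0.28. The neutrophil chemokine genes *Cxcl1* (-1.12), *Cxcl3* (-2.43, under 3 CPM in both) and *Cxcl2* (-0.52) were lower as well. The monocyte chemokine genes *Ccl6* and *Ccl9* had ratios of 0.21 and 0.23, with intervals above 0. Of 26 chemokine and receptor genes, 3 were past -1 (*Cxcl1*, *Cxcl3* and *Cxcl13*) and 1 past 1 (*Ccr3*), with a median of 0.07. In the list of inflammasome genes, the adaptor gene *Pycard*, which encodes ASC, had 40.6 and 80.8 CPM (0.99, interval 0.81 to 1.17) and the sensor gene *Nlrp3* 19.0 and 35.9 CPM (0.91), while the median of 19 genes was -0.05 and *Mefv*, at under 3 CPM, was past -1.

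**Figure D3:**
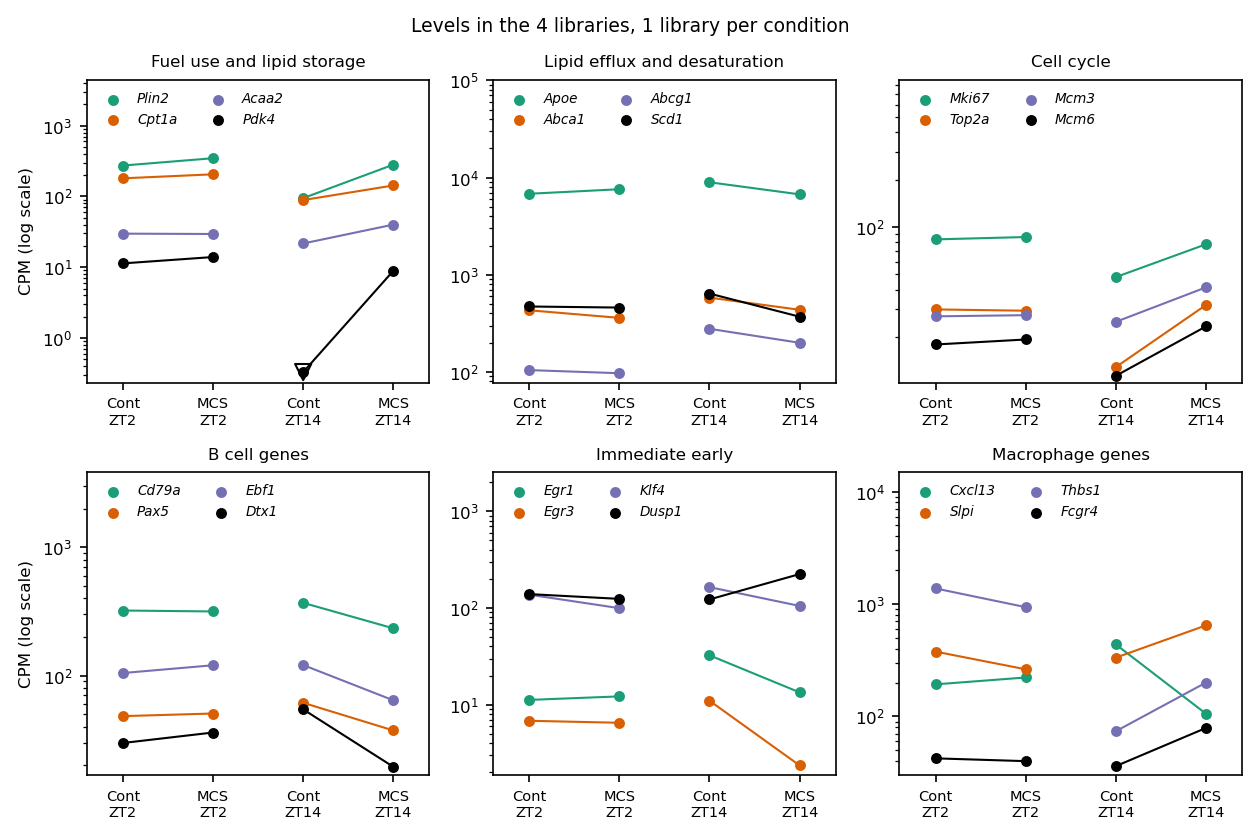
CPM of 24 genes in 6 groups on log axes, with the control and MCS libraries of each time joined by a line and 1 library per point. The open triangle marks *Pdk4* without a read in control at ZT14, drawn at the level of 3 reads. *Plin2*, *Mki67* and *Pdk4* are lowest in control at ZT14, whereas the B cell genes *Cd79a*, *Pax5*, *Ebf1* and *Dtx1* are lowest in MCS at ZT14.

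Genes of the respiratory chain and ATP synthase were higher as a body. All 76 listed were above 1 CPM, 67 had ratios above 0 and the intervals of 52 lay above 0 and of 1 below 0, with a median of 0.37 and 3 past 1. The ATP synthase gene *Atp5e* had 25.5 and 64.9 CPM (1.35, interval 1.13 to 1.57), and the cytochrome oxidase gene *Cox7a2* 17.1 and 36.3 CPM (1.08). Ribosomal protein genes had a wider spread. Of 81, 61 had ratios above 0, with intervals of 54 above 0 and of 15 below 0, a median of 0.23 and 3 past 1. *Rpl39* had 131 and 273 CPM (1.06), *Rps27a* 210 and 413 CPM (0.97) and *Rplp1* 274 and 523 CPM (0.94), but *Rpl38* had 263 and 208 CPM (-0.34). *Rpl22l1*, at 9.996 and 38.2 CPM, had the highest ratio (1.93). At ZT2 the medians had the opposite sign, -0.17 for the respiratory chain and -0.14 for ribosomal proteins, and *Rpl39* and *Rpl22l1* had -0.76 and -1.02.

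These lists hold short mRNAs, and transcript length moved with the ratio. Over 8094 single-copy genes with at least 10 CPM, the median log2 ratio at ZT14 went from 0.21 for genes whose longest annotated transcript is at most 1000 bases (n = 224) to -0.14 for those above 8000 bases (n = 551). At ZT2 the corresponding medians were -0.08 and 0.03. As a description across genes, which share the same pair of libraries, Spearman's rho between length and ratio was -0.33 at ZT14 and 0.15 at ZT2. Within the class of at most 1000 bases, respiratory chain genes had a median of 0.38 (n = 32), ribosomal protein genes 0.19 (n = 33) and genes outside both lists 0.19 (n = 159). With the median of its length class taken away from each gene, the list medians were 0.21 for the respiratory chain and 0.07 for ribosomal proteins, 0.59 for mitosis, 0.42 for DNA replication and -0.59 for B cells. The part of transcript length in the result for ribosomal proteins was not tested beyond these values.

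**Figure D4:**
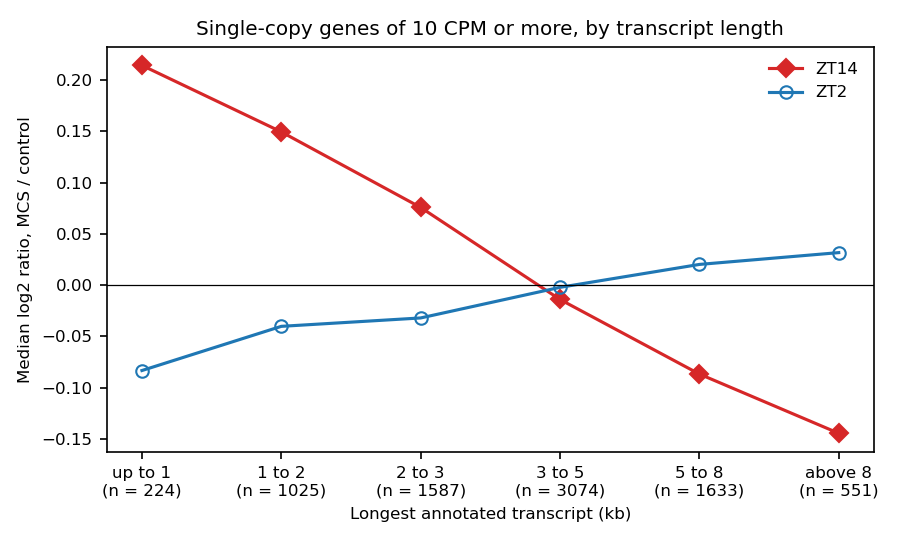
Median log2 ratio of MCS to control over single-copy genes with at least 10 CPM, by the length of the longest annotated transcript, at ZT14 (diamonds) and at ZT2 (circles), with the number of genes in each class. The ZT14 line goes from 0.21 down to -0.14 and the ZT2 line from -0.08 up to 0.03.

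Glycolysis genes leaned the same way, with 22 of 31 ratios above 0, intervals of 16 above 0 and of 3 below 0, and a median of 0.19. *Ldha*, which makes lactate, had 247 and 369 CPM (0.58), *Pgk1* 0.57, *Slc16a3*, the lactate exporter gene, 0.53 and *Hk2* 0.38. Of the same list, which also holds hypoxia genes, *Adm* had 3.84 and 1.02 CPM (-1.81), *Ndrg1* -0.46 and *Hif1a* itself 0.03. *Epas1*, which encodes HIF-2α and was not in the list, had 256 and 147 CPM (-0.80). Of the arginine genes, *Ass1*, which regenerates arginine from citrulline, had 15.7 and 34.5 CPM (1.13) and *Arg1* 123 and 171 CPM (0.47), and *Ass1*, which is not counted as single-copy, was on the other side at ZT2 (-1.30).

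Outside the lists, several abundant genes had low ratios. *Hal*, which degrades histidine, had 326 and 144 CPM (-1.18). Of genes for voltage-gated calcium channels, *Cacna1i* had 157 and 76.3 CPM (-1.04), and *Cacna1e* 332 and 166 CPM (-0.997), and the sodium channel gene *Scn4a* had 19.2 and 7.67 CPM (-1.31). These were named for their low ratios, and other channels of the kind were not tallied. The list of ion channels and purinergic receptors, of which they were not members, had 0 of 33 genes past 1 either way and a median of -0.07. *Nfatc1*, which transmits calcium signals to the nucleus, had 331 and 192 CPM (-0.78). Among small RNAs made by RNA polymerase III, *Rmrp*, the RNA of RNase MRP, had 184 and 400 CPM (1.12), while *Rprl3*, an RNase P RNA gene, had 723 and 287 CPM (-1.33).

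Other high ratios were of genes outside the lists. *Hgf*, hepatocyte growth factor, had 6.48 and 19.2 CPM (1.55), the transcription factor gene *Klf11* 6.48 and 17.7 CPM (1.43), *Xkrx* 5.82 and 16.1 CPM (1.45), *Mctp1*, a membrane protein with calcium-binding domains, 8.35 and 24.3 CPM (1.53) and *Fabp7*, a fatty acid carrier, 27.4 and 73.0 CPM (1.41). *Hnrnpa1*, an RNA-binding protein, had 95.1 and 185 CPM (0.96). *Pira1*, at 26.5 and 72.6 CPM (1.45), belongs to a family of similar receptor genes and had no transcript under its symbol in the annotation used, so its reads may be shared.

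Marker genes of other cell types were read for the same libraries. The eosinophil genes *Ccr3* (1.32 and 33.8 CPM, ratio 4.58) and *Siglecf* (0.659 and 14.1 CPM, 4.23) were higher and *Il5ra*, which B1 cells also express, was lower (48.9 and 33.9 CPM, -0.52). At ZT2 the ratios of *Ccr3* and *Siglecf* were 1.18 and 2.11. With *Il5ra* they make 3 of the 7 markers in that list, and the granule genes *Prg2*, *Epx*, *Ear1* and *Ear6* were not analysed here. Hemoglobin genes were higher, with *Hbb-b1* at 0.220 and 37.4 CPM, and *Hba-a2* at no read against 49.5 CPM, at least 150.2-fold. At ZT2 *Hbb-b1* had a ratio of 4.01 and *Hba-a1* one of 3.69, whereas *Hba-a2* had no read in either library. In the edgeR test of an effect common to both times, *Ccr3*, *Siglecf*, *Hbb-b1* and *Hba-a1* were called higher with MCS. These calls rest on 1 library per condition and 1 residual degree of freedom, so they do not measure the spread between mice. They also draw on the same ZT14 reads as the ratios above. Also called higher were *Hba-a2*, on reads of the ZT14 pair alone, and *Zbtb16*, *Adgrg5*, *Fam101b*, *Klf11* and *Plin2*. The hemoglobin genes resemble each other closely, so reads may be shared among them. The mast cell list summed to 1288 and 1087 CPM, with *Cpa3* at -0.49 and *Mcpt4* at -0.53 but *Tpsab1* at 0.99 and *Hdc*, which makes histamine, at 0.53. Neutrophil genes summed to 320 and 293 CPM, and to 293 and 487 CPM at ZT2. Of the 8 above 1 CPM, 6 had ratios below 0, 2 of them past -1, and 2 had ratios above 0, 1 of them past 1. *Csf3r* had 193 and 163 CPM, *Mmp9* 91.2 and 109 CPM and *S100a9* 9.23 and 1.23 CPM. Fibroblast genes were few, 7 above 1 CPM of 18, with all 7 above 0: *Pi16* had 68.0 and 101 CPM (0.58), and *Postn* 2.746 and 7.36 CPM (1.39). T cell (56.5 and 58.0 CPM), natural killer cell (30.6 and 34.2 CPM), dendritic cell (53.9 and 54.7 CPM), mesothelial cell (9.12 and 10.1 CPM) and platelet lists (184 and 197 CPM) summed to similar levels in both libraries. The part of these cells in the other results was not tested.

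The lists without a member past 1 in either direction included MHC class II (median -0.04 over 12 genes), Toll-like receptors (-0.06 over 24), lysosome (0.06 over 56), unfolded protein response (0.13 over 22), heat shock (0.09 over 21), interferon-stimulated genes (0.18 over 41) and integrated stress response (0.22 over 17). *Cd74*, the invariant chain, had 2007 and 1985 CPM, and *Isg15*, the ubiquitin-like product of interferon signalling, 0.989 and 2.05 CPM. Scavenger and lectin receptors (0.13), NRF2 targets (0.13) and retinoic acid genes (-0.03) also had no member past 1. In the last of these *Cyp26a1*, which degrades retinoic acid, had 20.9 and 35.9 CPM (0.78). Integrins (0.13), iron and heme genes (-0.12), TGF-β and BMP genes (-0.03) and the list of macrophage markers (0.20) had at most 2 members past 1 either way, among them the BMP target *Id1*, at 6.26 and 12.9 CPM (1.03), and the iron reductase *Steap4*, at 5.82 and 0.614 CPM (-3.05).

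The genes past 1 at ZT14 were followed in the ZT2 libraries, which share no library with the ZT14 pair. Of 11123 single-copy genes above 1 CPM at both times, 0.908% were past 1 and 0.441% past -1 at ZT2. Of the 175 higher at ZT14, 14 were past 1 and 8 past -1 at ZT2, with a median of 0.01. Of the 142 lower at ZT14, 1 was past -1, 16 were past 1 and 98 (69.0%) had ratios above 0 at ZT2, against 50.3% of all genes. With a mean of 10 CPM or more at both times, 2 of 28 higher genes, *Zbtb16* and *Adgrg5*, were past 1 at both. Another 2 of the 28 were past -1 at ZT2, and the median of the 28 at ZT2 was -0.13. Of 10 lower genes none was past -1 at ZT2. Of all 7921 single-copy genes at this level, 4 were past 1 and 3 past -1 at ZT2.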

How the data were processed

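RNA of sorted peritoneal macrophages was sequenced after ribosomal RNA depletion with a directional kit in 4 libraries, 1 per condition. The authors counted reads per gene and deposited CPM normalized by edgeR. The submitters' processing notes name Trimmomatic 0.38, RSEM 1.3.0, Bowtie2, edgeR and mm10. Every value was whole, within 0.05 read, in steps of 1 read per library (100% of values), so reads were recovered. These would include any rounding of RSEM's estimates by the authors. Ratios used the deposited values with 0.1 CPM added, over genes with a mean above 1 CPM, and a gene counted as higher or lower beyond a log2 ratio of 1. Single-copy genes were found with blastn 2.17.0 on GENCODE M21 transcripts (95% identity over 50% of the longest transcript). Of the listed genes 15129 had a transcript, and 29 single-copy genes above the minimum, *Hbb-b1* and *Pira1* among them, had none and were judged by name and values alone.

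Named genes were the 12 highest and lowest single-copy ratios at 10 CPM, the 10 highest and lowest at 100 CPM, list members past 1 at 5 CPM or the extremes of the list, the cell type markers with the highest CPM, and genes past 1 the same way at both times. Others were chosen after their values were seen, to show how the members of a list compare. The members and lists were chosen with earlier results of these data known. The count test (edgeR 4.0.16, R 4.3.3, quasi-likelihood, additive time and MCS) over 12404 genes with at least 40 reads called 24 at an adjusted p under 0.05. The ratios, intervals and count test were tested on simulated data. The versions were scipy 1.17.1, Python 3.11.15, pandas 2.3.3, matplotlib 3.10.9 and numpy 2.4.6. Some genes are not reported here.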

Additional observations from a re-analysis of the deposited data

Results flagged for a closer look

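Of the genes named for the largest ratios at ZT14, 21 had counting intervals on opposite sides of 0 at ZT14 and ZT2. The value given is the log2 ratio at ZT14 minus that at ZT2. Each rests on 4 single libraries, and the difference was not tested. Lower at ZT14 and higher at ZT2 were *Cxcl13* (-2.25), *Rprl3* (-2.17), *Dtx1* (-1.75), *Hal* (-1.53), *Cacna1e* (-1.14), *Epas1* (-1.10), *Nfatc1* (-1.06), *Ikzf3* (-1.05) and *Pou2f2* (-1.02). Higher at ZT14 and lower at ZT2 were *Pira1* (3.59), *Rpl22l1* (2.94), *Thbs1* (1.99), *Rpl39* (1.82), *Fabp7* (1.67), *Rmrp* (1.59), *Rplp1* (1.54), *Slpi* (1.48), *Rps27a* (1.38), *Hnrnpa1* (1.38), *Anxa1* (1.16) and *Garnl3* (1.08). *Rpl39*, *Rplp1*, *Rps27a* and *Rpl22l1* are ribosomal protein genes with short mRNAs, for which the medians by transcript length also had opposite signs at the 2 times.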

How the results depend on the processing

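Against 227 genes higher and 194 lower (183 and 149 single-copy), a pseudocount of 1 CPM gave 111 and 63 (86 and 48), no minimum expression 755 and 860 (614 and 648), a mean above 10 CPM 44 and 19 (33 and 13), a log2 threshold of 0.5 1073 and 992 (918 and 809), and a threshold of 2 29 and 18 (17 and 12). The edgeR count test, which sets MCS against control within each time and looks for an effect common to both on 1 residual degree of freedom, called 20 higher and 4 lower at an adjusted p under 0.05, with 304 genes at an unadjusted p under 0.05. Counts stayed within 1.5 times of these under a pseudocount of 0.01 CPM, TMM, rescaling to a median ratio of 1, summing of near-identical genes and, added after the data were seen, centring by transcript length. That centring gave 180 higher and 206 lower (149 and 159 single-copy), so that lower genes then outnumbered higher ones, as they also did without a minimum expression. TMM and a pseudocount of 1 CPM kept the sign of all 47 list medians and of all 139 named genes, rescaling to a median ratio of 1 that of all 139 genes, and single-copy members alone that of all 47 medians. Centring by length changed the sign of 9 list medians, each under 0.11 in size, and of 6 of 137 named genes, each under 0.15. Restricting lists to a mean above 10 CPM changed 4 of 45 medians, those of LXR and PPAR targets (0.01 to -0.25), T cells (0.20 to -0.44), dendritic cells (-0.07 to 0.18) and inflammasome genes (-0.05 to 0.13). Genes under 3 CPM rest on fewer than 30 reads per library, so that ratios past 1 there are within reach of counting error.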

Other observations

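The following groups were gathered after the values were seen and are given as values. The 13 MHC class I genes and loading and immunoproteasome partners picked were all higher at ZT14, with intervals of 11 above 0. Their median was 0.52, against -0.23 at ZT2. As they were picked with their ratios known, this is no independent count, and other class I genes were not tallied. Of those left out, *H2-L* had -0.85 in the test of an effect common to both times, and *H2-Q7* and *H2-T9* had 1.81 and 1.09. *H2-D1*, a classical class I gene, had 2165 and 3507 CPM in control and MCS (0.70), *H2-K1* 701 and 896 CPM (0.36), and *Psmb8*, an immunoproteasome subunit, 66.0 and 96.4 CPM (0.55). *B2m*, the light chain, had 803 and 857 CPM (0.09), and *Nlrc5*, which drives class I transcription, 35.9 and 40.2 CPM (0.16). Class I genes resemble each other, so reads may be shared among them, and the interferon-stimulated list stood at a median of 0.18 with no member past 1.

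Linker histone genes were higher as well. *Hist1h1c* had 55.03 and 119 CPM (1.11), *Hist1h1d* 15.7 and 32.5 CPM (1.04) and *Hist1h1e* 26.8 and 45.8 CPM (0.77), and the 7 linker and variant histone genes had a median of 0.80 at ZT14 and -0.27 at ZT2. Like the mitosis genes, *Hist1h1c* and *Hist1h1d* had their lowest level of the 4 libraries in control at ZT14.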
